A study of Mus musculus with 3 samples.

Results

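The 8 genes described here are *Krt71*, *Krt72*, *Krt73*, *Krt25*, *Krt27*, *Krt28*, *Tchh* and *Tchhl1*, which are 8 of the 32285 genes in the count tables. They are the keratins of the inner root sheath of the hair follicle, trichohyalin and its relative trichohyalin-like 1, and they were picked because they appear on Day 14 in these sections, so their difference between days is given as a description. Full-thickness skin wounds of C57BL/6J mice were sampled on Day 3, Day 7 and Day 14 post injury, and 1 section of each was read by spatial transcriptomics (Visium). The mice were young adult males without a transgene or drug treatment, the wounds were made by biopsy punch in the shaved back, and the frozen wound with its rim of skin was cut onto the slide. A Visium slide captures polyadenylated RNA on an array of spots, and each captured molecule is counted once by its unique molecular identifier (UMI). A spot is a small region of tissue that can hold several cells of different types.

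The inner root sheath is the set of epithelial layers that encloses and moulds the growing hair shaft and is broken down before the hair leaves the skin. Its cells pair a type II keratin (*Krt71*, *Krt72*, *Krt73*) with a type I keratin (*Krt25*, *Krt27*, *Krt28*) to build intermediate filaments. Trichohyalin is stored in these cells as granules, is converted by peptidylarginine deiminases and is then cross-linked to the keratin filaments by transglutaminases, which hardens the sheath. *KRT71* and *KRT25* are best known for mutations that give woolly or curly hair in several mammals. The outer root sheath, the companion layer and the hair shaft are neighbouring layers of the same follicle with keratins of their own.

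In the GENCODE annotation of GRCm38, the 3 type II genes lie near each other on the minus strand of chromosome 15. *Krt71* is at chr15:101733949-101743109, *Krt72* at chr15:101776172-101786460 and *Krt73* at chr15:101793308-101802346. The type I genes lie on the minus strand of chromosome 11, *Krt25* at chr11:99315516-99322951, *Krt27* at chr11:99345565-99351104 and *Krt28* at chr11:99364872-99374903, with *Krt26* between *Krt25* and *Krt27*. *Tchh* (chr3:93442330-93449077) and *Tchhl1* (chr3:93468754-93471980) are neighbours on the plus strand of chromosome 3, beside the filaggrin gene family.

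The promoters of *Krt71* and *Krt73* are printed first because they share the longest run of bases among the 8 genes. The stretches cover bases -250 to -21 counted from the RefSeq start (GRCm38.p6), 230 bases that overlap no annotated exon. For *Krt71* the stretch is chr15:101743118-101743347, and for *Krt73* it is chr15:101802381-101802610, both read on the minus strand. Capitals mark the 6 runs of at least 8 bases that occur in both genes in the same order, 58 bases in all.
Krt71: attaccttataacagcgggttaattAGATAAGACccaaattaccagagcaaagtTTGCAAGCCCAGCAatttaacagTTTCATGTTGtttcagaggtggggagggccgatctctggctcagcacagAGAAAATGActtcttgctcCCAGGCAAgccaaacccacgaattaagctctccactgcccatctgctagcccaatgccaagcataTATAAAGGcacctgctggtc
Krt73: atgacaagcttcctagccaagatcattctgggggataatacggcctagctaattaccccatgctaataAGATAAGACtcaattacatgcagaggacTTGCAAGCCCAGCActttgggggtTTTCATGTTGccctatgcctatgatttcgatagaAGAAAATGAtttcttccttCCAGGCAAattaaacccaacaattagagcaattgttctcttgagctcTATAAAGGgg
The run TTGCAAGCCCAGCA spans 14 bases, starts at -196 in *Krt71* and at -154 in *Krt73*, and was found on either strand in 2 of 27025 promoter stretches of this length, which are these 2. Over the other 27 pairs of the 8 genes the longest shared run was 7 to 10 bases, with a median of 8. The first run, AGATAAGAC, was held by 36 of the 27025 stretches.

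A pair of type I promoters is shown beside them, with capitals for AGATAA, a sequence that GATA factors can bind, and for TATAAA, the core of a TATA box, on either strand. For *Krt25* the stretch is chr11:99322972-99323201 and for *Krt27* it is chr11:99351139-99351368, on the minus strand.
Krt25: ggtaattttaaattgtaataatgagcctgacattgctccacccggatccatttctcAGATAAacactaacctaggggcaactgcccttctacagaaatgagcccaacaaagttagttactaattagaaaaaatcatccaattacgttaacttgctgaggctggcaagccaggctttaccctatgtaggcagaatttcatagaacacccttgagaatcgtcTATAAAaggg
Krt27: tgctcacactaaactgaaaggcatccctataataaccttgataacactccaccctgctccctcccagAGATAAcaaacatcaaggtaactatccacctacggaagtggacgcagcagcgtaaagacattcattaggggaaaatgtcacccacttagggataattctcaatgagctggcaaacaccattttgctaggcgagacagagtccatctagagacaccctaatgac
On either strand, the first of these motifs was present in the stretches of 5 of the 8 genes (*Krt71*, *Krt73*, *Krt25*, *Krt27* and *Tchh*) and in 9.78% of the 27025. The second was present in 5 of the 8 (*Krt71*, *Krt72*, *Krt73*, *Krt25* and *Krt28*) and in 12.4% of all. In *Krt73*, *Krt25* and *Krt28* it began at -30 and in *Krt71* at -40. The match in *Krt72* was on the other strand at -203, far from those positions. TAATTA, a homeobox core, was present in 4 of the 8 and in 4.74% of all, and in *Krt71* it shares 1 base with the first motif. The motif found in sites of LEF and TCF factors, CAAAG, was present in 6 of the 8 and in 46.3% of all, and in *Tchh* it shares 2 bases with the first motif. These are matches of letters chosen with the sequences in view, not mapped binding sites, and binding was not measured here.

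Levels are given as CPM, the UMIs of a gene per 1000000 UMIs of all genes, summed over the spots under tissue. The sections held 1772259, 4442962 and 4611723 such UMIs in 664, 549 and 697 spots on Day 3, Day 7 and Day 14, and the epidermal keratin *Krt14* and the collagen gene *Col1a1* were read in all 3. Intervals are exact and at 95%, and they cover counting error only. No day had a second section, so no test between days was possible, and the day of healing, the mouse and the place of the cut cannot be told apart. Likewise, more cells of a type and more RNA per cell cannot be told apart in these sums.

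The keratin genes of the inner root sheath were almost unread on Day 3 and Day 7 and were among the well-read genes on Day 14. Among the type II genes, *Krt71* gave 0, 1 and 6874 UMIs in the order of the days, the last being 1491 CPM (1456 to 1526). *Krt72* had 0, 0 and 588 UMIs, 128 CPM (117 to 138) on Day 14. *Krt73* had 0, 1 and 961 UMIs, 208 CPM (195 to 222) on Day 14. All 3 were thus at no more than 1 UMI in each of the earlier sections.

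The type I partners had the same course. *Krt25* had 0, 1 and 4688 UMIs on Day 3, Day 7 and Day 14, and its Day 14 level was 1017 CPM (988 to 1046). *Krt27* had 1, 1 and 3820 UMIs, 828 CPM (802 to 855) on Day 14. *Krt28* had 0, 1 and 927 UMIs, 201 CPM (188 to 214) on Day 14. The summed Day 14 levels therefore came from both keratin types.

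*Tchh*, the trichohyalin gene, was the member most often read before Day 14. Its 4, 8 and 4395 UMIs on the 3 days were 2.26 CPM (0.615 to 5.78), 1.80 CPM (0.777 to 3.55) and 953 CPM (925 to 982). Each of these early UMIs lay in a spot of its own. *Tchhl1*, whose product resembles trichohyalin, had no UMI under tissue on Day 3 or Day 7 and 244 on Day 14, 52.9 CPM (46.5 to 59.98).

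**Figure D1:**
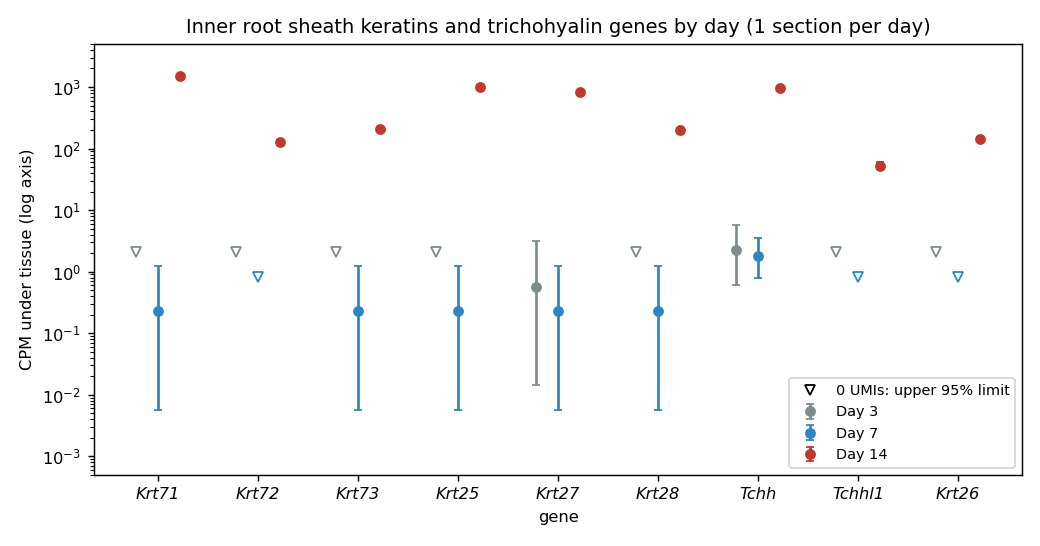
Level under tissue (CPM, log axis) of the 8 genes and *Krt26* on Day 3, Day 7 and Day 14, with exact Poisson 95% intervals; open triangles give the upper limit where no UMI was read. The Day 14 points run from 52.9 CPM for *Tchhl1* to 1491 CPM for *Krt71*, and no earlier point is above 2.26 CPM.

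Summed over the 8 genes, the sections gave 5, 13 and 22497 UMIs. These sums were 2.82 CPM (0.916 to 6.58), 2.93 CPM (1.56 to 5.004) and 4878 CPM (4815 to 4942). Day 14 was 529-fold (268 to 1227) above Day 7 for *Tchh*, 4516-fold (810 to 178428) for *Krt25* and 6622-fold (1188 to 261611) for *Krt71*. For *Krt72* and *Tchhl1*, with no UMI on Day 7, the exact lower bounds put Day 14 at least 153-fold and at least 63.2-fold higher, and against a floor of 3 UMIs over the section the ratios were 189 and 78.4. A gene was counted as past the fold when the lower bound of its ratio was above 2, among genes with at least 50 UMIs over both sections. All 8 genes were past it on Day 14 over Day 7, where 5.7% of 11746 genes were past it upward and 3.69% downward, and on Day 14 over Day 3, where 4.66% of 10955 were past it upward and 3.72% downward. The genes were picked for this contrast, so nothing is read from that count. Between Day 3 and Day 7 none of the 8 reached 50 UMIs, and the ratio for *Tchh*, 0.798 (0.214 to 3.62), spans no change.

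On Day 14 the order of captured molecules was *Krt71*, *Krt25*, *Tchh*, *Krt27*, *Krt73*, *Krt28*, *Krt72* and *Tchhl1*. UMIs are read near the 3′ end and are not divided by transcript length, so the order is one of captured molecules per section. The intervals of *Krt73* (195 to 222) and *Krt28* (188 to 214) overlap, and those of the other neighbours in this order do not, with *Krt25* (988 to 1046) and *Tchh* (925 to 982) the closest. *Krt71* supplied 30.6% (29.95 to 31.2) of the 22497 UMIs, *Krt25* 20.8%, *Tchh* 19.5%, *Krt27* 16.98%, *Krt73* 4.27%, *Krt28* 4.12%, *Krt72* 2.61% and *Tchhl1* 1.08%. Each keratin type thus had well-read and little-read genes, with *Krt71* far above *Krt72* and *Krt73*, and *Krt25* and *Krt27* above *Krt28*.

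The 8 genes were spread over much of the Day 14 section but, in raw UMIs, concentrated in few spots. Of the 697 spots under tissue, 606 held *Krt71*, 589 *Krt25*, 559 *Tchh*, 541 *Krt27*, 346 *Krt28*, 336 *Krt73*, 257 *Krt72* and 130 *Tchhl1*. The summed count per spot ran from 0 to 754 with a median of 16, and 22 spots had none. The richest 20 spots held 25% of the UMIs, 73 spots held 50% and 347 held 90%. These counts are not divided by spot depth. The 202 spots under tissue with at least 30 UMIs of the 8 genes held 17097 of their 22497 UMIs. The same spots held 2503503 of the 4611723 UMIs of all genes. *Tchhl1* had 50% of its UMIs in the fewest spots, 27, against 77 spots for *Krt25*. A gene with few UMIs fills few spots, and *Tchhl1* had 244 against 4688 for *Krt25*. No narrower pattern is read from that difference. All 8 genes were found together in 57 spots, whose median depth of 13768 UMIs was the greatest of any number of genes per spot, so the number of genes read in a spot moved with its depth.

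**Figure D2:**
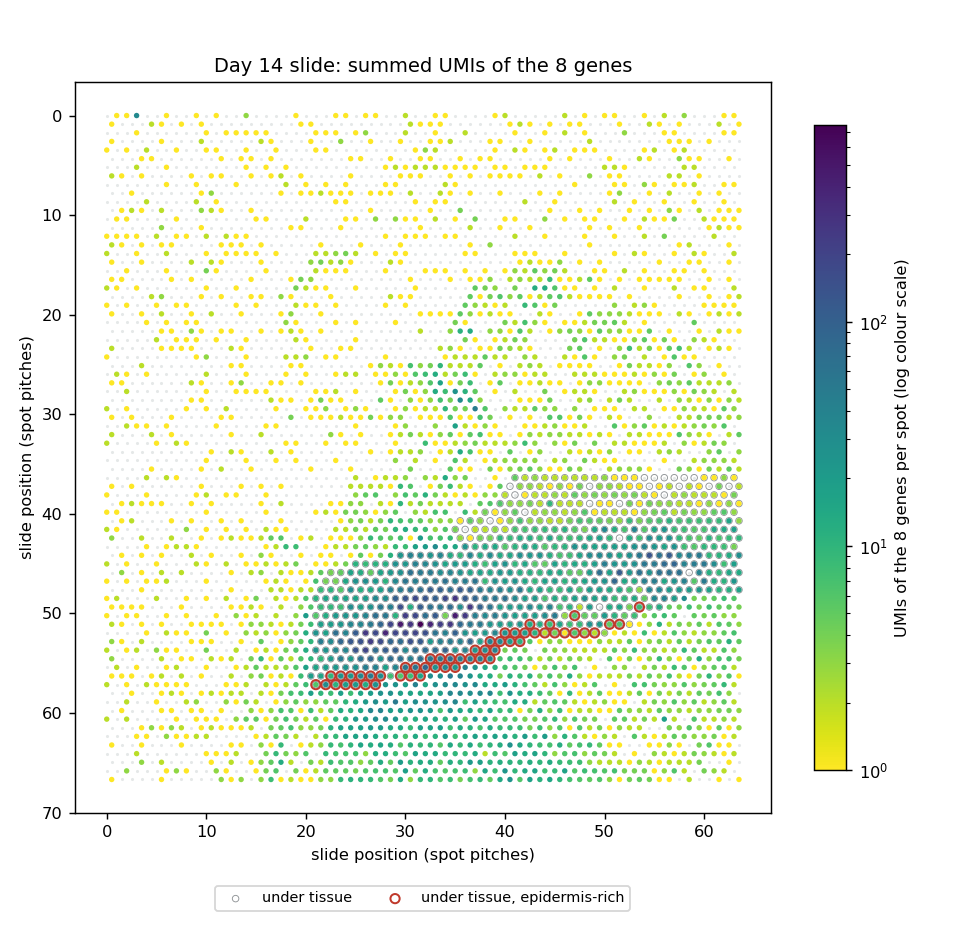
Day 14 slide with both axes in spot pitches, the distance between neighbouring spots; colour gives the summed UMIs of the 8 genes per spot (log colour scale), grey rings mark spots under tissue and red rings the 52 epidermis-rich spots. The richest spots, up to 754 UMIs, lie a few pitches inside the epidermal edge, and lower counts extend over unmarked spots.

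Free RNA can carry UMIs into spots whose cells do not express a gene, so the shares were compared at equal depth with spots rich in skeletal muscle, a tissue not known to express the 8 genes. With every spot thinned to 1000 UMIs, 598 of 679 spots (88.1%, 85.4 to 90.4) held any of the 8 genes. Of the 137 muscle-rich spots, 78 did (56.9%, 48.2 to 65.4). The muscle-rich spots are among the spots under tissue, so here and below a part is set beside the whole that contains it. Unthinned, the shares were 96.8% of 697 spots at a median depth of 4827 UMIs and 86.9% of 145 muscle-rich spots at 2889. Per gene the thinned shares were 57.7% and 26.3% for *Krt71*, 48.2% and 21.9% for *Krt25*, 43.6% and 15.3% for *Tchh* and 40.5% and 12.4% for *Krt27*. For *Tchhl1* they were 2.504% and 0 of 137 spots, whose exact upper limit of 2.66% includes the tissue share. The summed level of the 8 genes in the muscle-rich spots was 948 CPM (858 to 1044). Shares at or below the muscle level are read here as background, and whether the muscle-rich spots also held follicle cells was not tested. Spots outside the marked tissue had a higher summed level, 2006 CPM (1966 to 2047), so the choice of background is not settled by these values. On Day 3 and Day 7, at the same depth, 1 of 426 and 0 of 525 spots held any of the 8, with exact upper limits of 1.301% and 0.7002%.

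Spots outside the marked tissue also held these genes on Day 14. The 9461 UMIs there were 2006 CPM (1966 to 2047), and the level was 2760 CPM (2591 to 2937) in the 113 spots at 1 pitch from tissue, 2072 CPM (1994 to 2153) at 6 to 10 pitches and 1401 CPM (1309 to 1497) beyond 20. The makeup outside was close to that under tissue but not equal. *Krt27* made up 18.5% (17.7 to 19.3) of the UMIs outside and 16.98% (16.5 to 17.5) under tissue, and *Tchh* 17.6% (16.8 to 18.3) and 19.5% (19.0 to 20.1). Counts outside on Day 3 and Day 7 were 5 and 15 UMIs. Neither the source of the outside counts nor the completeness of the tissue marks was tested.

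Within the Day 14 section, the 8 genes were highest a short way below the epidermis. Distance was measured to the nearest of 52 epidermis-rich spots, those with at least 2 times the section's level of a list of interfollicular epidermal genes (*Krt1*, *Krt10*, *Lor* and others). *Krt71* was at 809 CPM (735 to 889) in the epidermis-rich spots, 3290 CPM (3125 to 3460) at 4 pitches and 701 CPM (648 to 759) at 9 or more. *Tchh* was at 407 CPM (354 to 464), 2283 CPM (2146 to 2426) and 375 CPM (336 to 417) in the same bands. *Lor*, the loricrin gene of the cornified layer, instead had 6288 CPM in the epidermis-rich spots and 847 at 4 pitches. Of the 8 genes 7 peaked at 4 pitches, and *Tchhl1* peaked at 3, with 161 CPM (130 to 198) there and 87.5 CPM (62.5 to 119) at 4. The peak was flat for *Krt28* and *Krt72*. *Krt28* had 381 CPM (326 to 442) at 4 pitches and 376 CPM (314 to 446) at 5. *Krt72* had 304 CPM (256 to 359) at 4 and 243 CPM (204 to 287) at 3. With the epidermis-rich spots defined at 5 times the section, the peak moved 1 pitch deeper for all but *Krt72*, which stayed at 4 pitches.

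**Figure D3:**
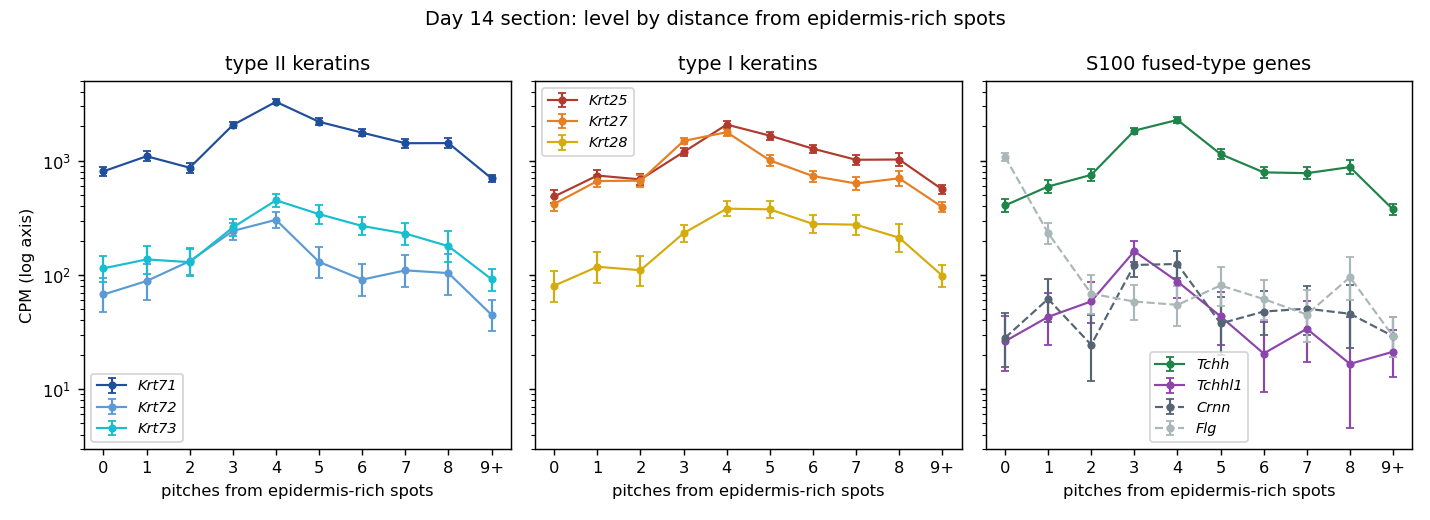
Level (CPM, log axis, exact Poisson 95% intervals) on Day 14 by distance from the epidermis-rich spots, in spot pitches, for the type II keratins, the type I keratins, and *Tchh* and *Tchhl1* beside *Crnn* and *Flg* (dashed). The 8 genes rise to a peak at 3 or 4 pitches, whereas *Flg* falls from 1085 CPM at 0 to 54.7 CPM at 4.

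The genes did not keep a fixed ratio to each other across this depth. Each gene's share of the summed UMIs of the 8 was compared between spots at 2 to 3 pitches (5614 UMIs in 102 spots) and at 5 to 7 pitches (6288 UMIs in 141 spots), a comparison chosen after seeing the data. Spots of 1 section are not replicates, so the intervals describe these spots only. *Tchhl1* made up 2.05% (1.69 to 2.45) of the shallow and 0.573% (0.401 to 0.792) of the deep UMIs, a ratio of 3.58 (2.44 to 5.36). *Krt72*, *Tchh* and *Krt27* were also a larger part of the shallow UMIs, with ratios of 1.73 (1.37 to 2.18), 1.48 (1.36 to 1.60) and 1.39 (1.28 to 1.52). *Krt28*, *Krt73*, *Krt25* and *Krt71* were a larger part of the deep UMIs, with ratios of 0.562 (0.466 to 0.675), 0.704 (0.587 to 0.843), 0.713 (0.657 to 0.774) and 0.832 (0.778 to 0.890). None of the 8 intervals includes 1. Each keratin type held both kinds: *Krt72* against *Krt71* and *Krt73* among the type II genes, and *Krt27* against *Krt25* and *Krt28* among the type I genes. All 8 ratios of shares kept their side of 1 with the 5-times definition of epidermis-rich spots, but the ratios of levels did not. In CPM, shallow over deep went from 1.54 to 0.609 for *Tchh*, from 1.46 to 0.708 for *Krt27* and from 1.81 to 0.828 for *Krt72*. For the summed genes it went from 1.05 to 0.505, and *Tchhl1* stayed above 1 (3.74 and 2.24). The shares thus describe makeup, not which genes were higher near the epidermis. *Krt71* and *Krt73*, whose promoters share the 14-base run printed above, were on the same side, but so were *Krt25* and *Krt28*, which lack the run. A link between the run and depth was not tested.

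**Figure D4:**
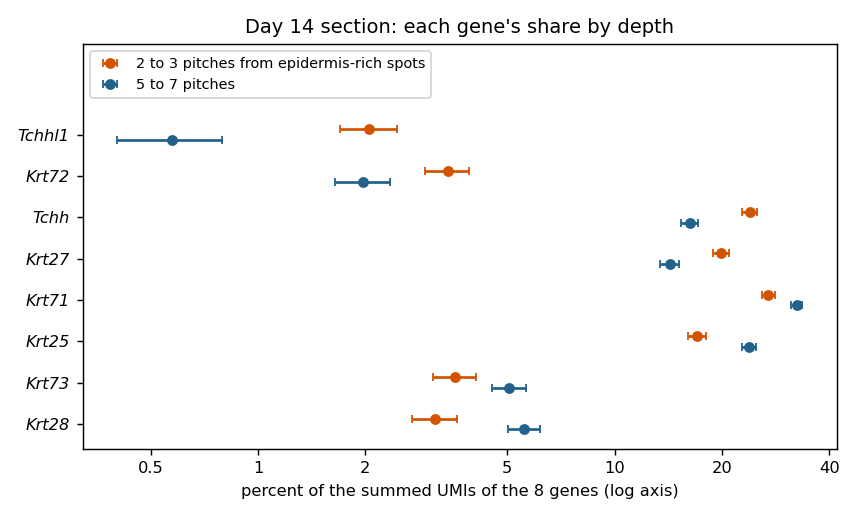
Share of the summed UMIs of the 8 genes (percent, log axis, exact binomial 95% intervals) at 2 to 3 pitches and at 5 to 7 pitches from the epidermis-rich spots on Day 14, genes ordered by the ratio of the shares. *Tchhl1* falls from 2.05% to 0.573%, and *Krt28* goes from 3.14% to 5.58%.

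The richest places within the section were compared in makeup. Joined at a minimum of 10 UMIs of the 8 genes, 677 spots of the slide gave 28 groups, but 637 of those spots fell into 1 group, so follicles could not be separated this way. After seeing this, local maxima of at least 100 UMIs with no higher spot within 2 pitches were taken, and 4 were found, with 754, 449, 130 and 109 UMIs. In the 7 spots around the first maximum *Krt71* was 30.9% (28.8 to 32.9) of 1993 UMIs, and around the second 36.2% (33.4 to 39.1) of 1141. *Krt72*, at 1.05% (0.653 to 1.61) and 1.49% (0.870 to 2.37), had a smaller part around both than in the whole section (2.61%). The intervals of *Krt71* around these first 2 maxima do not overlap. They were the only intervals of the 8 genes that did not overlap between any of the 4 maxima, the other two of which had 413 and 293 UMIs. The spot with most *Tchhl1* (13 UMIs, depth 4454) was not the spot with most *Krt71* (231 UMIs, depth 25304), and the same deep spot was the richest for *Krt25*, *Krt27*, *Krt28* and *Tchh*.

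*Krt26*, the remaining type I keratin of the inner root sheath, was no member but had the same course. It had no UMI on Day 3 or Day 7 and 661 on Day 14, 143 CPM (133 to 155), and it was highest at 3 pitches with 326 CPM (281 to 377). *Krt74* was not analysed here. *Krt26* thus lay between *Krt72* and *Krt28* in level and peaked with *Tchhl1*.

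Enzymes that can modify trichohyalin were read at lower levels and did not move as a body. Of the 7 of 8 listed genes with enough UMIs, 4 were past the fold upward on Day 14 over Day 7 and none downward, with a median log2 ratio of 2.10 against 0.13 over all genes tested (5.7% upward and 3.69% downward). Over Day 3, 2 of 7 were past it upward and 1, *Tgm2*, downward, with a median of 0.83 against 0.17 (4.66% upward and 3.72% downward). *Padi3*, a peptidylarginine deiminase of the follicle, had 0, 7 and 426 UMIs on the 3 days, 92.4 CPM (83.8 to 102) on Day 14 and 58.6-fold (28.2 to 147) above Day 7. *Padi1* had 1, 5 and 58 UMIs, and *Tgm3*, a transglutaminase of follicle and epidermis, had 13, 9 and 65, which is 6.96-fold (3.45 to 15.9) over Day 7 and 1.92-fold (1.05 to 3.80) over Day 3. *Tgm1*, the keratinocyte transglutaminase, was 4.32-fold (3.16 to 5.99) above Day 7. *Tgm2*, the widely expressed tissue transglutaminase, went the other way with 128, 68.2 and 36.4 CPM, and *Padi2* and *Tgm5* had ratios of 1.204 (0.795 to 1.83) and 1.06 (0.675 to 1.67) over Day 7. *Padi3* was highest at 4 pitches, the band in which *Tchh* was highest.

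*Tchh* and *Tchhl1* belong to the S100 fused-type genes, epidermal proteins with a calcium-binding head, and the other 5 lie beside them on chromosome 3. Of these, 4 were past the fold upward on Day 14 over Day 7 and *Rptn* was past it downward, while over Day 3, 3 were past it upward and none downward. Over all genes tested, 5.7% were past it upward and 3.69% downward over Day 7, and 4.66% and 3.72% over Day 3. The median log2 ratio of the 5 was 1.34 over Day 7 and 1.90 over Day 3, against 0.13 and 0.17 over all genes tested. *Crnn*, the cornulin gene, had 1, 1 and 263 UMIs, 253-fold (45.1 to 10045) above Day 7, and was highest at 3 and 4 pitches (122 and 125 CPM). *Flg*, *Flg2* and *Hrnr*, filaggrin and its relatives in the granular layer, were 2.53-fold (2.23 to 2.88), 5.42-fold (4.65 to 6.35) and 2.505-fold (2.11 to 2.98) above Day 7 and were highest in the epidermis-rich spots. *Rptn*, the repetin gene, had 27.1, 42.8 and 12.1 CPM on the 3 days. Adjacent genes of this cluster therefore had different courses and different depths, with *Crnn* the closest to *Tchh* and *Tchhl1* in both.

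Neighbours in the keratin clusters also differed from the 8 genes. *Krt5*, next to *Krt71* and a keratin of basal cells, had 987, 986 and 1903 CPM, and *Krt10*, next to *Krt28* and a keratin of suprabasal epidermis, had 583, 447 and 1378 CPM. *Krt2*, next to *Krt73*, had 1, 0 and 16 UMIs. These neighbours were read on all days or hardly at all, unlike the genes between them.

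All 12 listed regulators of the follicle were past the fold upward on Day 14 over both earlier days, with median log2 ratios of 3.81 over Day 7 and 2.86 over Day 3 (0.13 and 0.17 over all genes tested). The share of all genes tested that was past it upward was 5.7% over Day 7 and 4.66% over Day 3. *Gata3*, a transcription factor required for inner root sheath cells, had 70.5, 41.4 and 224 CPM, 5.40-fold (4.61 to 6.36) above Day 7. *Cux1*, also tied to the inner root sheath, had 64.3, 52.4 and 180 CPM. *Msx2*, *Hoxc13* and *Dlx3*, homeobox factors of hair matrix and shaft, were 50.4-fold (26.3 to 111), 61.8-fold (32.3 to 136) and 43.5-fold (27.0 to 75.0) above Day 7. *Gata3* and *Cux1* were therefore well read when the 8 genes were almost unread. *Gata3* was also highest in the epidermis-rich spots (382 CPM), while *Dlx3*, *Hoxc13*, *Vdr* and *Shh* were highest at 4 pitches, as 7 of the 8 genes were. The other 7 regulators had their highest band deeper, at 5 to 8 pitches, with few UMIs for some (113 for *Foxn1*). In mean distance, *Cux1*, *Msx1*, *Msx2* and *Lef1* were deeper than the summed 8 genes, but *Foxn1*, *Ovol1* and *Sox21* were shallower. With the epidermis-rich spots defined at 5 times the section, *Foxn1*, *Ovol1* and *Cux1* peaked at 5 pitches, as the summed 8 genes did. *Msx1*, *Msx2*, *Sox21* and *Shh* then peaked at 6 and *Lef1* at 7.

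**Figure D5:**
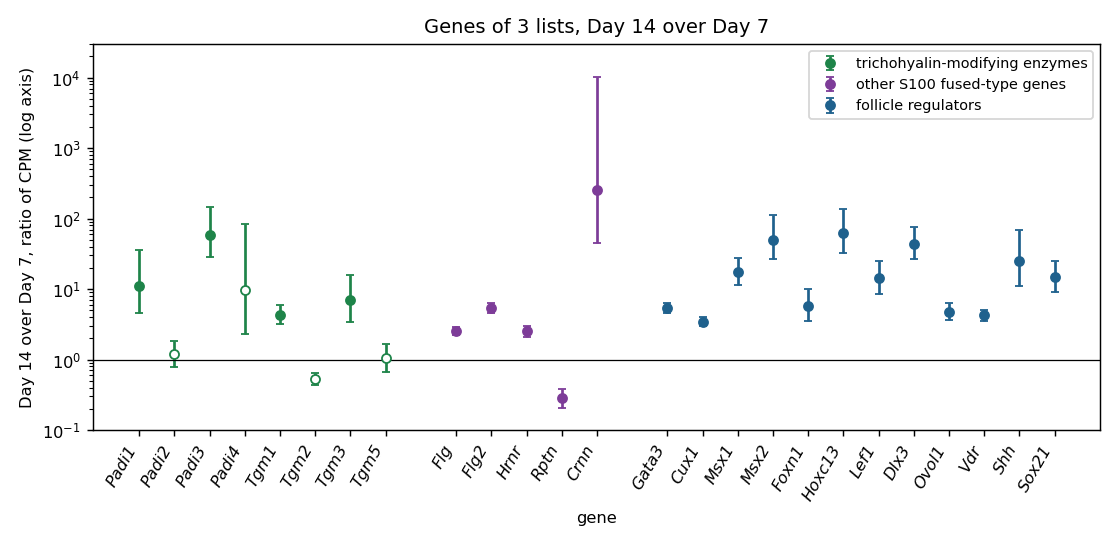
Ratio of Day 14 to Day 7 CPM (log axis, exact 95% intervals) for the trichohyalin-modifying enzymes, the other S100 fused-type genes and the follicle regulators; filled points are past the fold and open points are not, and the line marks a ratio of 1. *Padi3* and *Crnn* stand apart from the rest of their lists, *Rptn* is lower on Day 14, and all 12 regulators are higher.

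Some other layers and cells of the follicle moved with the 8 genes and others did not, and their part in the result was not tested. The hair shaft keratins had 3.39 (1.24 to 7.37), 2.93 (1.56 to 5.004) and 561 CPM (540 to 583) on Day 3, Day 7 and Day 14. All 9 of them that could be counted were past the fold on Day 14 over Day 7, 12 of 15 were at 0 on Day 3 and 11 on Day 7, and *Krt35* led with 298 CPM on Day 14. For these and the next lists, the shares over all genes tested were 5.7% upward and 3.69% downward over Day 7, and 4.66% and 3.72% over Day 3. The lists were chosen with earlier results of these data known, so the counts are descriptions. The 8 melanocyte genes summed to 59.8, 52.0 and 548 CPM, and the 6 proliferation genes to 293, 264 and 742 CPM. The 10 genes of the outer root sheath and companion layer were read on each day, at 5426, 3115 and 7196 CPM, with 6 of 10 past the fold upward over Day 7 and none downward. Among the 6 was *Krt75*, a companion layer keratin, at 23.0-fold (15.96 to 34.3). Over Day 3, 4 of 10 were past it upward and *Cd34* was past it downward at 0.332-fold (0.292 to 0.376), while *Krt14* was at 0.834 (0.805 to 0.864). The epidermal list had 4827, 2422 and 6827 CPM, the sebaceous gland list 722, 209 and 439 CPM and the muscle list 38900, 52433 and 58952 CPM. The dermal papilla list had 212, 419 and 193 CPM, a sum carried by *Crabp1* with 292, 1646 and 278 UMIs. Other genes of that list went the opposite way, with *Wif1* at 4.91-fold (3.74 to 6.52) and *Hhip* at 8.67-fold (4.17 to 20.8) over Day 7, and the median log2 ratio of its 6 tested genes was 1.46 over Day 7, with 2 past the fold upward and 1 downward. The dermal fibroblast list had 30833, 46557 and 23423 CPM and the macrophage list 2562, 1740 and 653 CPM. Epidermal and sebaceous genes were thus well read in the 2 sections that almost lacked the 8 genes. So was the outer root sheath list, but mostly through *Krt5*, *Krt14* and *Krt15*. These had 1750, 4572 and 1666 UMIs on Day 3 and 4380, 4235 and 2946 on Day 7. *Krt5* and *Krt14* are also read from epidermis, and the part from the sheath was not tested. *Krt75* had 34 and 30 UMIs on Day 3 and Day 7. The hair shaft keratins, with 6 and 13 UMIs there, were about as rare as the 8 genes with 5 and 13.

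Around the spots with at least 10 UMIs of the 8 genes, most other follicle lists fell with distance, the muscle list rose, and some skin lists fell only beyond the first steps. The level of the 8 genes was 5489 CPM in the 450 such spots under tissue, 1925 CPM (1779 to 2080) at 1 pitch, 1153 CPM (972 to 1357) at 2 and 602 CPM (462 to 772) at 4 or more. The spots were chosen by their raw UMIs of the 8 genes, so the fall of these genes outside them follows in part from the rule. The rule also favours deep spots, as the 450 held 3923639 UMIs of all genes and the 114 at 1 pitch held 334546. Over the same steps the hair shaft keratins had 615, 401, 176 and 48.5 CPM, the outer root sheath list 7983, 4080, 1721 and 990 CPM, and the muscle list 46643, 92029, 142135 and 187561 CPM. The other S100 fused-type genes were higher at 1 pitch, with 957 CPM (855 to 1067), than in the rich spots, with 604 CPM (580 to 629). They then fell to 456 CPM at 2 pitches and 48.5 CPM at 4 or more. The macrophage list had 666, 661 and 688 CPM over the first steps, up to 2 pitches, and then 422 CPM at 3 and 379 CPM at 4 or more. The epidermal list had 7403 CPM in the rich spots, 5820 at 1 pitch and 845 at 4 or more, and the dermal fibroblast list 24847, 22816 and 5680 CPM. With rich spots set at a minimum of 30 UMIs, these were 7177, 8544 and 2317 CPM for the epidermal list. For the dermal fibroblast list they were 21253, 27890 and 15044 CPM. The direction of the step to 1 pitch thus rests on the minimum, while both lists were lower at 4 or more pitches with either minimum. In the muscle-rich spots, which were chosen without use of the 8 genes, the level of these genes was 948 CPM. Over the whole section, muscle-rich spots included, it was 4878 CPM. Even at 4 or more pitches from the rich spots, the 8 genes stayed above their level on Day 3 and Day 7.

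Across the 697 spots the 8 genes varied together, and less so after thinning. The correlation of log1p UMIs per 10000 over the 28 pairs had a median of 0.38 and ran from 0.17 for *Krt28* with *Tchhl1* to 0.58 for *Krt71* with *Krt27*. After thinning to 1000 UMIs per spot (679 spots) the median was 0.13, with a range of -0.04 to 0.23. The spots share a library and differ in depth, and these values are descriptions. *Krt71*, *Krt25*, *Krt27* and *Tchh* were the most closely linked, and *Tchhl1* had its highest value with *Krt27* (0.33) and, once thinned, with *Krt72* (0.18).

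The genes with the most similar pattern to the summed 8 were of several kinds, epithelial, collagen and general genes among them. Of 10021 genes with at least 50 UMIs, the 10 with the highest Pearson correlation over 697 spots were *Ptma* (0.64), *Mt2* (0.60), *Col1a1* (0.59), *Fabp5* (0.57), *Prr9* (0.57), *Scd1* (0.56), *Krt17* (0.55), *Lgals7* (0.55), *Krt5* (0.55) and *Eef1a1* (0.55). Only *Prr9*, a proline-rich gene, shared the course in time, with 1, 1 and 3104 UMIs on the 3 days. Among genes other than the 8, *Prr9* was the closest to *Tchh* (0.56) and *Krt72* (0.41), and the metallothionein gene *Mt2* was the closest to *Krt25* (0.54), *Krt73* (0.37) and *Krt28* (0.41). Outside the 8, *Prr9* was thus closest to 2 of the 4 genes with a larger share of the shallow UMIs. *Mt2* was closest to 3 of the 4 genes with a larger share of the deep UMIs. For the remaining genes the closest were *Krt17* (*Krt27*, 0.52), *Gm47969* (*Tchhl1*, 0.45) and *Ptma* (*Krt71*, 0.54). Some ranks were near ties, as *Mt1* had 0.410 with *Krt28* and *Hnrnpa3* had 0.366 with *Krt73*. *Mt2* also had 0.47 with *Tchh*.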

How the data were processed

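The authors sequenced 1 Visium section per day, 3 in all. The deposited values are raw UMI counts of each gene in each spot, made with Space Ranger 1.3.0 on build mm10 per the labels' processing notes, and the position lists mark the spots under tissue. The annotation release behind the counts is not given in the sources used here. Sections were grouped by the labelled day, and counts were summed over spots under tissue. Sums carry exact Poisson intervals, shares exact binomial (Clopper-Pearson) intervals and ratios exact conditional binomial intervals, all at 95%, from Python 3.11.15 with numpy 2.4.6 and scipy 1.17.1, tested on simulated counts. GENCODE M21 gave the positions and held 32158 of the 32285 identifiers and all 8 genes. RefSeq promoters were matched by symbol for all 8. Thinning drew 1000 UMIs per spot without replacement (seed 1) and left out 18 of 697 shallower spots on Day 14, 24 of 549 on Day 7 and 238 of 664 on Day 3. Muscle-rich spots had at least 2 times the section's CPM of the muscle list.

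The members and the gene lists were chosen with earlier results of these data known. Named genes were the 8, the listed genes, the 10 most correlated genes and the neighbours in the gene clusters. Alternatives changed the weighting of spots (mean of spot CPM), the denominator (without the 8 genes, hair shaft keratins and mitochondrial genes), the scaling (TMM of edgeR 4.0.16, size factors of DESeq2 1.42.0), the spots counted, the UMI minimums, the thinning depth and the correlation. The depth comparison and the local maxima were added after seeing the data. Deconvolution into cell types and the study's marking of the wound were not used here.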

Additional observations from a re-analysis of the deposited data

How the results depend on the processing

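Ratios of Day 14 over the earlier days kept their direction where a ratio could be formed, for the 6 genes with a UMI on Day 7 and, over Day 3, for *Krt27* and *Tchh*, under the alternatives run (mean of spot CPM, another denominator, a minimum of 500 UMIs per spot, all spots of the slide, TMM factors and size factors). The summed Day 14 level of 4878 CPM was 3787 as the mean of spot CPM, 5198 with the other denominator and 3426 over all spots of the slide. The share of spots with any of the 8 genes was 70.1% thinned to 500 UMIs and 97.3% thinned to 2000. The number of spot groups, 28, was 121 at a minimum of 3 UMIs, 101 where the 8 genes held at least 1% of a spot and 3 with marked spots only, and 226 spots gave 23 groups at a minimum of 30 UMIs. The level at 1 pitch from rich spots was 3129 CPM at that minimum, against 1925. Of the 10 most correlated genes, 5 were kept by Spearman correlation and 5 after thinning. The median correlation between the 8 genes was 0.13 after thinning, against 0.38. The cause of these changes was not tested. The Day 3 section was the shallowest: 0 UMIs there allow up to 2.08 CPM, against 0.830 on Day 7, so lower levels were not detectable at this depth. No paired analysis was possible because each day had 1 section, and no replicate could be left out.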
